A study of Ovis aries with 24 samples.

Results

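The genes described here encode the enzymes that cut or cross-link extracellular matrix in sheep pituitary cultures, together with their inhibitors: the matrix metalloproteinases (MMP), the tissue inhibitors of metalloproteinases (TIMP), the lysyl oxidases (LOX and LOXL), the ADAMTS proteases and the ADAMTS-like proteins (ADAMTSL). Members were chosen by gene name, and 50 of the 27054 features in the count tables carried such a name. MMPs are zinc proteases that are secreted or anchored in the membrane and that cut collagens and other matrix proteins, and TIMPs block their active site. Lysyl oxidases oxidise lysines so that collagen and elastin fibres become cross-linked. ADAMTS proteases cut proteoglycans or trim procollagens, while ADAMTS-like proteins share their ancillary domains but lack the protease domain. Such genes are best known from fibroblasts and other stromal cells, and hormone-secreting cells of the anterior pituitary sit on a basement membrane next to such cells.

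Primary cultures came from pituitaries of ovariectomized Western white faced ewes. All cultures were infected, 24 hours after dispersal, with an adenovirus that directs green fluorescent protein (GFP) to gonadotropes, the cells that secrete luteinizing and follicle-stimulating hormone, and 3 days later they received either estradiol (E2) at 10 nM or its ethanol vehicle for 6 hours. Each treatment was applied to sorted cells, collected by GFP fluorescence, and to unsorted cells, the anterior pituitary culture as a whole with its gonadotropes, which gave 4 groups of 6 libraries and 24 in all. The labels give neither the promoter in the virus, the ages of the ewes, whether cells were pooled across animals, nor whether unsorted cells also passed through the sorter. Nothing in them says that replicates came from separate animals or cultures, so p-values measure the spread between these libraries, which may be technical.

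Libraries of replicates 1 to 3 (12 libraries) held 4.185 to 6.19 M counts and those of replicates 4 to 6 (12 libraries) 19.217 to 37.042 M, so members with few reads rest mainly on replicates 4 to 6. The sorted cells matched their label: all 5 gonadotrope genes (GNRHR, FSHB, LHB, CGA and NR5A1) were higher than in unsorted cells under vehicle, with summed levels of 2492 to 5632 CPM (a gene's reads scaled to the library's total) against 291 to 1323 CPM. Transcripts of genes used as markers of other cells were still detected after sorting, and which cells made them was not tested. The 11 fibroblast and pericyte genes summed to 832 to 1820 CPM in sorted vehicle and 4264 to 11188 CPM in unsorted vehicle libraries, the 8 folliculostellate and stem cell genes to 2467 to 3100 CPM against 5514 to 7301 CPM, the 9 endothelial genes to 18.9 to 48.3 CPM against 37.0 to 82.2 CPM, and the 7 macrophage and leukocyte genes to 11.6 to 20.5 CPM against 16.5 to 37.3 CPM. No marker of these lists was at 0 in every library of a group.

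At least 1 CPM on average in at least 1 group was reached by 43 of the 50 members (86.0%), against 54.7% of all features. With a minimum of 0.5 CPM the number was 44, and with 5 CPM it was 31. MMP8, MMP25, MMP27, ADAMTS8, ADAMTS13, ADAMTS16 and ADAMTSL2 stayed below 1 CPM in every group. MMP8, the neutrophil collagenase, had 3 reads in all 24 libraries together. LOX itself, TIMP4, MMP10, MMP21, MMP23, MMP26 and ADAMTSL6 matched no feature name and are not analysed here. Together the members took 0.189 to 0.463% of the counts in sorted vehicle libraries and 0.431 to 0.574% in unsorted vehicle libraries.

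Most members differed between sorted and unsorted cells. Under vehicle, 24 of the 42 members tested were lower in sorted than in unsorted cells and 7 were higher (edgeR quasi-likelihood test, adjusted p under 0.05). Of the 14468 genes tested in that comparison 25.8% were lower and 24.4% higher, 50.2% in either direction, against 73.8% of the members. With replicate number as a block, MMP9 lost its call and MMP15 gained one, which left 24 lower and 7 higher, and 63.6% of all genes were called. The median log2 fold change of the members was -1.21, and that of all genes 0.02. The lowered members included every lysyl oxidase measured, both gelatinases, MMP14 and TIMP3, whereas MMP1, TIMP1, TIMP2, MMP24, MMP20, ADAMTS19 and ADAMTSL3 were higher. In bulk RNA, fewer cells of a type and less RNA per cell cannot be told apart, and unsorted cultures contain gonadotropes themselves.

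**Figure D1:**
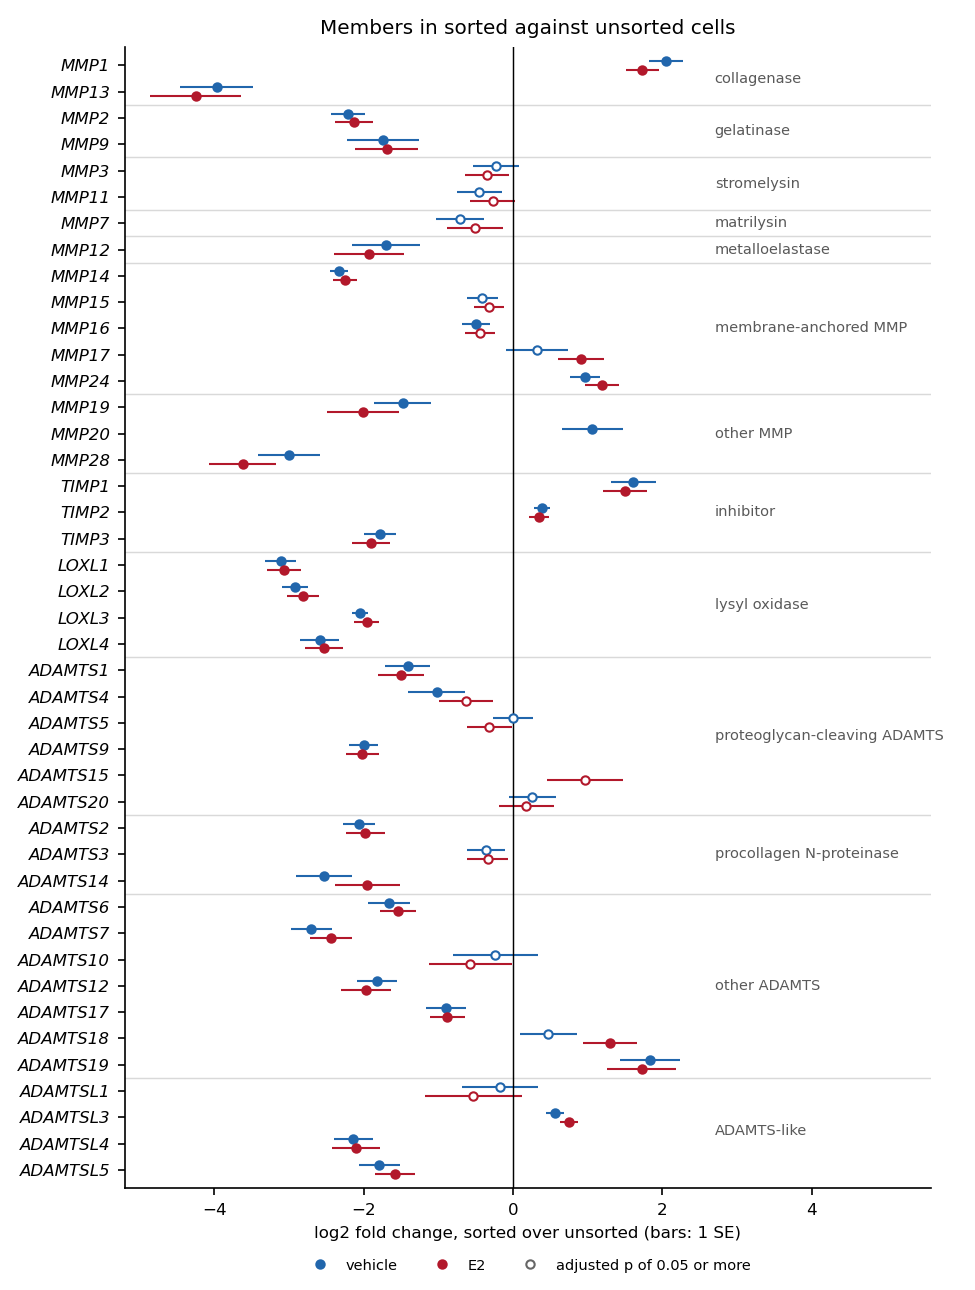
Log2 fold change of sorted over unsorted cells (horizontal axis, bars 1 SE) for the 43 members tested in at least 1 of the comparisons, grouped by role, under vehicle (blue) and E2 (red); filled points have an adjusted p under 0.05. All 4 lysyl oxidases lie left of 0 under both treatments, and the collagenases MMP1 and MMP13 lie on opposite sides of 0.

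The 2 collagenases that could be tested, which both open the triple helix of fibrillar collagen, went in opposite directions. MMP1 ranged from 71.1 to 160.0 CPM in sorted vehicle libraries (median 112.0) and from 17.3 to 36.1 CPM in unsorted vehicle libraries (median 27.6). The groups did not overlap, and the means were 115.0 ± 39.3 and 27.4 ± 7.38 CPM (SD, n = 6 each), a log2 fold change of 2.05 ± 0.23 (SE, edgeR adjusted p = 7.5e-06). MMP13 ranged from 0.165 to 1.71 CPM in sorted vehicle libraries (median 0.747) and from 4.28 to 20.3 CPM in unsorted ones (median 12.1). Those groups did not overlap either, and the log2 fold change was -3.97 ± 0.49 (SE, edgeR adjusted p = 1.5e-05), with 1 to 22 MMP13 reads in a sorted vehicle library. In the RefSeq sheep assembly ARS-UI_Ramb_v3.0, MMP13, MMP12, MMP1, MMP8, MMP27, MMP20 and MMP7 lie in this order, with LOC101118895 between MMP12 and MMP1. MMP3 had no matching symbol there. Genes of this cluster were higher (MMP1, MMP20) and lower (MMP13, MMP12) after sorting. The MMP20 call was lost in some fits without 1 library, as given below.

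**Figure D2:**
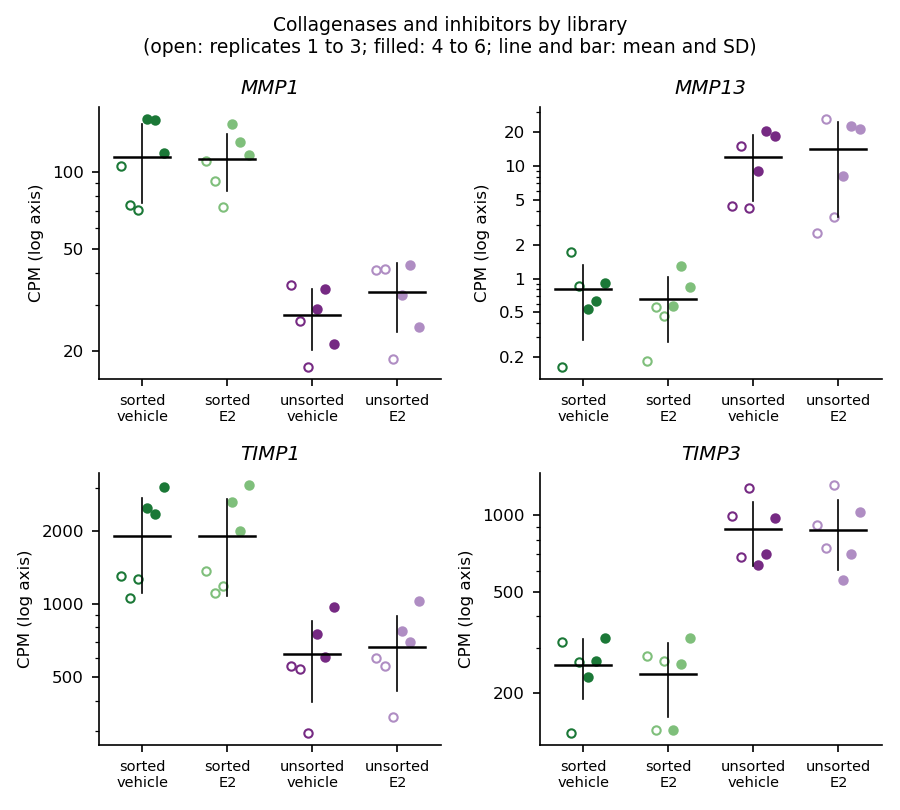
CPM on a log axis for MMP1, MMP13, TIMP1 and TIMP3 in each library of the 4 groups (open points replicates 1 to 3, filled points replicates 4 to 6, line and bar mean and SD, n = 6). MMP1 and TIMP1 sit higher in sorted than in unsorted libraries with no overlap, MMP13 and TIMP3 sit lower with no overlap, and the vehicle and E2 points of each preparation overlap.

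Both gelatinases, which digest denatured collagen and basement membrane collagen, were lower in sorted cells. MMP2 ranged from 87.9 to 232.0 CPM in sorted vehicle libraries (median 192.0) and from 508.0 to 1072.0 CPM in unsorted vehicle libraries (median 832.0), without overlap, and its log2 fold change was -2.21 ± 0.23 (SE, edgeR adjusted p = 3.3e-06). MMP9 averaged 6.79 ± 3.92 CPM in sorted and 22.3 ± 16.0 CPM in unsorted vehicle libraries (SD, n = 6 each), and these groups overlapped. Its log2 fold change of -1.74 ± 0.48 (edgeR adjusted p = 0.0086) lost its call when replicate number was a block (-1.60, adjusted p = 0.055). In replicate 1 MMP9 was at 14.4 CPM in the sorted and 9.36 CPM in the unsorted vehicle library, the reverse of the other 5 numbers.

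The stromelysin MMP3 cuts proteoglycans and activates other MMP precursors, and neither it nor the stromelysin MMP11 differed by the test. MMP3 ranged from 14.0 to 43.9 CPM in sorted vehicle libraries (median 21.3) and from 12.9 to 42.0 CPM in unsorted ones (median 25.8), and MMP11 from 3.41 to 9.25 CPM (median 7.21) against 4.46 to 15.0 CPM (median 10.1). For both genes the groups overlapped, with log2 fold changes of -0.23 ± 0.31 and -0.45 ± 0.30 (SE, edgeR adjusted p = 0.55 and 0.22). The matrilysin MMP7 averaged 1.36 CPM in sorted and 2.29 CPM in unsorted vehicle cells (log2 fold change -0.71 ± 0.32, edgeR adjusted p = 0.08, and 0.023 without unsorted vehicle replicate 6). MMP12, the elastase of macrophages, was lower in the sorted library of all 6 numbers, at 7.20 ± 2.54 against 23.4 ± 16.4 CPM (SD, n = 6 each), a log2 fold change of -1.70 ± 0.45 (SE, edgeR adjusted p = 0.0067). The macrophage receptor gene CSF1R was also lower, at 0 to 0.293 CPM in sorted against 1.5 to 5.13 CPM in unsorted vehicle libraries. Among unsorted vehicle libraries MMP12 was highest in replicate 2 (50.4 CPM), where CSF1R was lowest (1.5 CPM). It was lowest in replicate 4 (5.89 CPM), where CSF1R was highest (5.13 CPM). Of the 5 macrophage and leukocyte genes tested under vehicle 2 were lower in sorted cells and 1, CD3E, was higher (1.21 on the log2 scale, edgeR adjusted p = 0.0066). CSF1R was singled out after its values were seen, and the part of macrophages in the MMP12 result was not tested.

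The membrane-anchored MMPs diverged. MMP14, which activates the MMP2 precursor at the cell surface, ranged from 38.4 to 59.1 CPM in sorted vehicle libraries (median 43.3) and from 205.0 to 268.0 CPM in unsorted ones (median 221.0). The groups lay far apart, with a log2 fold change of -2.33 ± 0.12 (SE, edgeR adjusted p = 1.9e-08). MMP24, known from neural tissue, ranged from 9.22 to 20.3 CPM in sorted vehicle libraries (median 16.6) and from 5.88 to 9.47 CPM in unsorted ones (median 8.65). Only the edges of these groups overlapped, all 6 same-numbered pairs were higher in sorted cells, and the log2 fold change was 0.96 ± 0.20 (SE, edgeR adjusted p = 0.001). MMP16, which like MMP14 has a transmembrane anchor, was slightly lower in sorted vehicle cells (-0.50 ± 0.19, edgeR adjusted p = 0.041), a call that was lost in 9 of 12 fits without 1 library, namely any of sorted replicates 1 to 5 and unsorted replicates 1, 3, 4 and 6 (adjusted p up to 0.099). MMP15 ranged from 11.1 to 23.1 CPM in sorted vehicle libraries (median 15.1) and from 13 to 27.3 CPM in unsorted ones (median 21.6), which overlapped, and passed only with the replicate block (log2 fold change -0.40 ± 0.12, edgeR adjusted p = 0.013, against 0.11 without it). MMP17, held in the membrane by a lipid anchor, had a log2 fold change of 0.32 ± 0.42 (edgeR adjusted p = 0.54).

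Among the remaining MMPs, MMP19 fell to 0.909 CPM in sorted from 2.59 CPM in unsorted vehicle cells (log2 fold change -1.48 ± 0.38, edgeR adjusted p = 0.0049), and MMP28, called epilysin, to 0.291 from 1.94 CPM (-3.0 ± 0.42, adjusted p = 4.9e-05). A sorted vehicle library held 2 to 6 reads of MMP28. MMP20, the enamelysin of tooth enamel, averaged 1.03 CPM in the sorted and 0.54 CPM in the unsorted vehicle group, with a log2 fold change of 1.06 ± 0.41 (edgeR adjusted p = 0.044). That call was lost in 4 of the 6 fits without 1 library that tested MMP20, namely those without sorted replicate 1, 2 or 3 or unsorted replicate 3 (adjusted p up to 0.078). In the authors' deposited table the false discovery rate of MMP20 was 0.06.

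The inhibitors were split. TIMP1, a secreted inhibitor of most soluble MMPs, ranged from 1058.0 to 3013.0 CPM in sorted vehicle libraries (median 1818.0) and from 296.0 to 973.0 CPM in unsorted ones (median 582.0). Every sorted library was above every unsorted one, and the log2 fold change was 1.61 ± 0.30 (SE, edgeR adjusted p = 0.00054). In the RefSeq assembly TIMP1 neighbours the neuronal gene SYN1, and since the sources used here do not state whether counting used the strand, reads of overlapping genes could not be told apart. TIMP2, which also takes part in the activation of MMP2 by MMP14, ranged from 121.0 to 156.0 CPM in sorted (median 134.0) and from 86.5 to 128.0 CPM in unsorted vehicle libraries (median 101.0). The groups overlapped at their edges, all 6 same-numbered pairs were higher in sorted cells, and the log2 fold change was 0.39 ± 0.11 (SE, edgeR adjusted p = 0.0074). TIMP3, the inhibitor that binds to the matrix and also blocks ADAMTS proteases, went the other way, from 637.0 to 1283.0 CPM in unsorted vehicle libraries down to 139.0 to 328.0 CPM in sorted ones. It did not overlap between groups and had a log2 fold change of -1.78 ± 0.21 (SE, edgeR adjusted p = 1.2e-05).

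All 4 lysyl oxidases with a feature were lower in sorted cells, in a comparison where 25.8% of all genes tested were called lower. Their groups did not overlap. The share of all genes without such overlap was not counted, here or for the other members. LOXL1, which acts on elastic fibres, ranged from 26.3 to 47.5 CPM in sorted vehicle libraries (median 43.9) and from 228.0 to 449.0 CPM in unsorted ones (median 359.0), a log2 fold change of -3.11 ± 0.21 (SE, edgeR adjusted p = 8.3e-08). LOXL2, which cross-links basement membrane collagen, ranged from 105.0 to 176.0 CPM (median 121.0) against 808.0 to 1175.0 CPM (median 1001.0), a log2 fold change of -2.92 ± 0.17 (SE, edgeR adjusted p = 2.4e-08). On average LOXL1 was 8.58 times and LOXL2 7.55 times higher in unsorted cells. LOXL4 ranged from 26.5 to 71.3 CPM in sorted (median 52.7) and from 169.0 to 386.0 CPM in unsorted vehicle libraries (median 321.0), with a log2 fold change of -2.59 ± 0.26 (edgeR adjusted p = 2.6e-06). LOXL3 averaged 26.6 ± 2.82 and 110.0 ± 12.7 CPM (SD, n = 6 each), with a log2 fold change of -2.05 ± 0.11 (edgeR adjusted p = 1.9e-08).

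**Figure D3:**
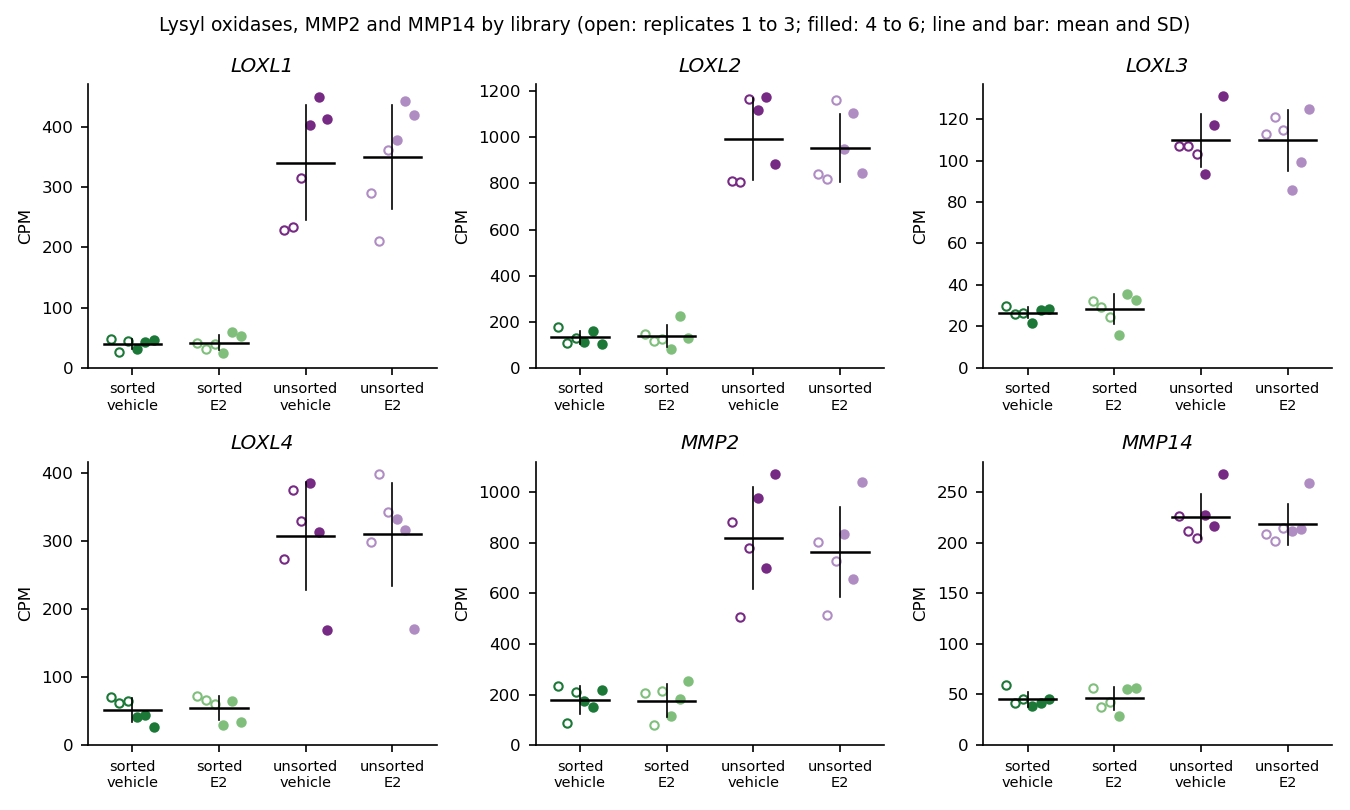
CPM on linear axes from 0 for LOXL1, LOXL2, LOXL3, LOXL4, MMP2 and MMP14 in each library of the 4 groups (open points replicates 1 to 3, filled points replicates 4 to 6, line and bar mean and SD, n = 6). Every sorted library sits below every unsorted library for each of the 6 genes, and the vehicle and E2 libraries of each preparation overlap.

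Of the ADAMTS proteases that cleave proteoglycans such as aggrecan and versican, 5 were tested under vehicle and 3 were lower in sorted cells. Of all genes tested there, 25.8% were called lower. ADAMTS9 averaged 22.7 ± 5.32 CPM in sorted and 89.9 ± 22.4 CPM in unsorted vehicle libraries (SD, n = 6 each), without overlap, and had a log2 fold change of -2.0 ± 0.19 (edgeR adjusted p = 1.9e-06). ADAMTS1 had a log2 fold change of -1.41 ± 0.30 (adjusted p = 0.0014) and ADAMTS4 of -1.02 ± 0.38 (edgeR adjusted p = 0.038). The ADAMTS4 call was lost in 7 of 12 fits without 1 library, namely sorted replicates 1 to 4 and unsorted replicates 4 to 6 (adjusted p up to 0.13). With the replicate block it had an adjusted p of 0.00057 (-0.94), and all 6 pairs were lower in sorted cells. ADAMTS5, the neighbour of ADAMTS1 in the RefSeq assembly and with ADAMTS4 a main aggrecan-cutting enzyme of cartilage, averaged 4.14 CPM in sorted and 4.20 CPM in unsorted vehicle cells (log2 fold change 0.00 ± 0.27). ADAMTS20 was not called (0.26 ± 0.31).

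The procollagen N-proteinases remove the amino-terminal propeptide of fibrillar procollagens. ADAMTS2 ranged from 10.8 to 19.3 CPM in sorted vehicle libraries (median 13.5) and from 33.9 to 86.1 CPM in unsorted ones (median 62.7), and ADAMTS14 from 0.732 to 1.82 CPM (median 1.16) against 2.26 to 8.68 CPM (median 7.79). Neither overlapped between groups, and the log2 fold changes were -2.06 ± 0.21 and -2.53 ± 0.37 (SE, edgeR adjusted p = 2.5e-06 and 6.4e-05). ADAMTS3, the third enzyme of this kind, ranged from 3.66 to 5.85 CPM in sorted (median 4.84) and from 3.12 to 9.17 CPM in unsorted vehicle libraries (median 6.31). These overlapped, and its log2 fold change of -0.36 ± 0.25 missed the threshold (edgeR adjusted p = 0.25).

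Among the other ADAMTS genes, ADAMTS7, which cuts cartilage oligomeric matrix protein, ranged from 2.56 to 6.58 CPM in sorted vehicle libraries (median 4.17) and from 19.2 to 42.5 CPM in unsorted ones (median 28.1). The groups did not overlap, and the log2 fold change was -2.70 ± 0.27 (SE, edgeR adjusted p = 2.4e-06). ADAMTS12, which shares that substrate, had a log2 fold change of -1.82 ± 0.27, ADAMTS6 of -1.66 ± 0.28 and ADAMTS17 of -0.90 ± 0.27 (edgeR adjusted p = 7.4e-05, 0.00023 and 0.011). ADAMTS19 was the exception among them, with means of 1.65 ± 0.292 CPM after sorting and 0.548 ± 0.452 CPM without it in vehicle libraries (SD, n = 6 each), with all 6 pairs higher in sorted cells and a log2 fold change of 1.83 ± 0.40 (edgeR adjusted p = 0.0016). ADAMTS10 and ADAMTS18 were not called, at -0.24 ± 0.57 and 0.47 ± 0.38 on the log2 scale.

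The ADAMTS-like proteins bind matrix microfibrils or other matrix components without cutting them. ADAMTSL4, a fibrillin-binding member, ranged from 7.61 to 16.7 CPM in sorted vehicle libraries (median 10.9) and from 31.9 to 75.5 CPM in unsorted ones (median 44.6), without overlap (log2 fold change -2.14 ± 0.26, edgeR adjusted p = 1.3e-05). ADAMTSL5 was also lower (-1.79 ± 0.27, adjusted p = 9.9e-05). ADAMTSL3 was higher, at 27.6 to 40.8 CPM in sorted (median 36.0) against 20.5 to 28.3 CPM in unsorted vehicle libraries (median 22.8), where only the edges of the groups overlapped, with a log2 fold change of 0.56 ± 0.12 (edgeR adjusted p = 0.0014). ADAMTSL1 was not called (-0.18 ± 0.51). ADAMTSL2 was removed by the filter on low counts here, and in the authors' deposited table it was lower in sorted cells (log2 fold change -1.54, false discovery rate 0.039).

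The sort comparison under E2 used the 12 other libraries and gave much the same picture. It is not an independent repeat, because vehicle and E2 libraries with the same replicate number varied together. There, 22 of 42 members tested were lower in sorted cells and 8 were higher, with a median log2 fold change of -1.19, against 26% lower, 25.8% higher and 51.8% in either direction among the 14545 genes tested. Of the 41 members tested under both treatments 40 had the same sign, 22 were lower in both, 6 were higher in both (MMP1, MMP24, TIMP1, TIMP2, ADAMTS19 and ADAMTSL3), and 0 were called in opposite directions. The same shares over all genes were not counted, so these numbers do not show a trait of the members. MMP16 and ADAMTS4 were called under vehicle only, and MMP17 and ADAMTS18 under E2 only, and whether the sort effects differ between treatments is the same question as the test of the 2 E2 effects given further on.

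The log2 fold changes under vehicle and under E2 differed by at most 0.83 among the members tested in both. MMP1 ranged from 73.0 to 153.0 CPM in sorted E2 libraries (median 113.0) and from 18.6 to 43.2 CPM in unsorted E2 libraries (median 37.3), without overlap (log2 fold change 1.73 ± 0.22, edgeR adjusted p = 2.4e-05). MMP13 had a log2 fold change of -4.25 ± 0.61, LOXL1 of -3.07 ± 0.23, LOXL2 of -2.81 ± 0.21, MMP14 of -2.25 ± 0.16 and TIMP3 of -1.90 ± 0.25, each with an edgeR adjusted p of 7.3e-05 or less. TIMP1 was 2.84 times higher in sorted E2 cells on average (log2 fold change 1.5 ± 0.29, edgeR adjusted p = 0.00073), whereas the call on TIMP2 (0.35 ± 0.13, adjusted p = 0.038) was lost in 8 of 12 fits without 1 library, all but those without sorted replicate 1 or 3 or unsorted replicate 4 or 6 (adjusted p up to 0.096).

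MMP24 no longer overlapped between the groups under E2, at 10.0 to 21.7 CPM in sorted (median 18.4) and 4.72 to 8.66 CPM in unsorted libraries (median 7.91), with a log2 fold change of 1.19 ± 0.23 (edgeR adjusted p = 0.00073). MMP17 ranged from 3.5 to 7.12 CPM in sorted E2 libraries (median 4.98) and from 1.54 to 4.83 CPM in unsorted ones (median 2.04), which overlapped, with a log2 fold change of 0.91 ± 0.31 (edgeR adjusted p = 0.024). That call was lost without sorted E2 replicate 4 or 5 or unsorted E2 replicate 1, 3 or 6 (adjusted p up to 0.058), while with the replicate block the adjusted p was 0.00063. ADAMTS18 averaged 3.12 CPM in sorted and 1.28 CPM in unsorted E2 cells (log2 fold change 1.30 ± 0.36, edgeR adjusted p = 0.0078). With the block, ADAMTS15 was also higher in sorted E2 cells (0.88 ± 0.25, adjusted p = 0.010, against 0.13 without the block), and MMP15, MMP16 and ADAMTS4 were also lower (adjusted p = 0.010, 0.039 and 0.0057). These made 9 members higher and 25 lower with the block, where 65.7% of all genes were called.

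Fewer members were called with E2 than with sorting. In sorted cells 0 of 39 members tested passed the edgeR test without pairing, where 1.37% of 14334 genes did (1.11% raised and 0.258% lowered). An unadjusted p under 0.05 was reached by 3 members and by 7.14% of all genes, and DESeq2 called ADAMTS15 up and ADAMTSL3 down, with 2.8% of all genes called. Libraries with the same replicate number varied together across groups, so the fit with replicate number as a block stands beside it. With the block 3 members rose (ADAMTS15, ADAMTS18 and ADAMTS4) and 2 fell (ADAMTSL3 and MMP17). That is 12.8% of the members tested, near the 13.2% of all genes that passed with the block (7.03% raised and 6.2% lowered), and the median log2 fold change of the members was -0.01.

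ADAMTS15, a proteoglycan-cutting protease, had the largest E2 change of the members tested in sorted cells. ADAMTS15 passed the filter on low counts through its E2 libraries, so its rank among the members tested is not evidence in itself. In sorted cells its level with vehicle and E2 was 1.32 and 4.83 CPM in replicate 1, 0.341 and 2.04 CPM in replicate 2, and 0 and 0.933 CPM in replicate 3. In the deeper libraries it was 0.106 and 1.53 CPM in replicate 4, 0.0488 and 0.902 CPM in replicate 5, and 0.377 and 3.18 CPM in replicate 6. It was higher with E2 in 6 of 6 pairs, although the groups overlapped because sorted vehicle replicate 1 was high. The gene had 0 to 9 reads in a vehicle and 4 to 72 reads in an E2 library.

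The blocked log2 fold change of ADAMTS15 in sorted cells was 2.91 ± 0.30 (SE, edgeR adjusted p = 6.2e-07). Without the block it was 2.81 ± 0.72 (adjusted p = 0.088, and 0.018 without sorted vehicle replicate 1), and in the authors' deposited table it was 2.75 with a false discovery rate of 0.0092. In unsorted cells ADAMTS15 ranged from 0.273 to 0.996 CPM with vehicle and from 0.334 to 2.71 CPM with E2, higher in 5 of 6 pairs, and was removed by the filter on low counts. In the blocked fits without replicate 1, 2 or 3, where it passed the filter, its log2 fold change was 1.32 to 1.39. Each of these fits left out 1 of the shallow replicates, so they give no test over all 6 numbers. Those fits were chosen after seeing the data. The authors' deposited table gave ADAMTS15 in unsorted cells a log2 fold change of 1.32 with a false discovery rate of 0.87. Its neighbour ADAMTS8 was at 0 to 0.827 CPM in sorted vehicle and 0.451 to 0.765 CPM in sorted E2 libraries.

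ADAMTS18 rose in 5 of 6 pairs of sorted libraries, from 0.683 to 2.65 CPM with vehicle (median 1.25) to 1.17 to 6.14 CPM with E2 (median 2.76). Replicate 3 went the other way, from 1.89 to 1.17 CPM, the groups overlapped, and the blocked log2 fold change was 1.34 ± 0.22 (SE, edgeR adjusted p = 0.00015, against 0.33 without the block). ADAMTS4 rose in all 6 pairs, from 3.24 to 9.80 CPM (median 5.24) to 4.83 to 13.3 CPM (median 7.42). Its groups overlapped widely, and its blocked log2 fold change was 0.43 ± 0.10 (SE, edgeR adjusted p = 0.0069, against 1 without the block).

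ADAMTSL3 was lower with E2 in 6 of 6 pairs of both preparations, when replicate number was a block. In sorted cells it ranged from 27.6 to 40.8 CPM with vehicle (median 36.0) and from 23.5 to 29.9 CPM with E2 (median 27.3), groups that overlapped at their edges (blocked log2 fold change -0.40 ± 0.08, edgeR adjusted p = 0.0024, against 0.16 without the block). In unsorted cells it ranged from 20.5 to 28.3 CPM with vehicle (median 22.8) and from 13.2 to 19.0 CPM with E2 (median 15.9). Those groups did not overlap, and the blocked log2 fold change was -0.63 ± 0.08 (SE, edgeR adjusted p = 2.1e-05, against 0.12 without the block and 0.0025 by DESeq2 without it).

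**Figure D4:**
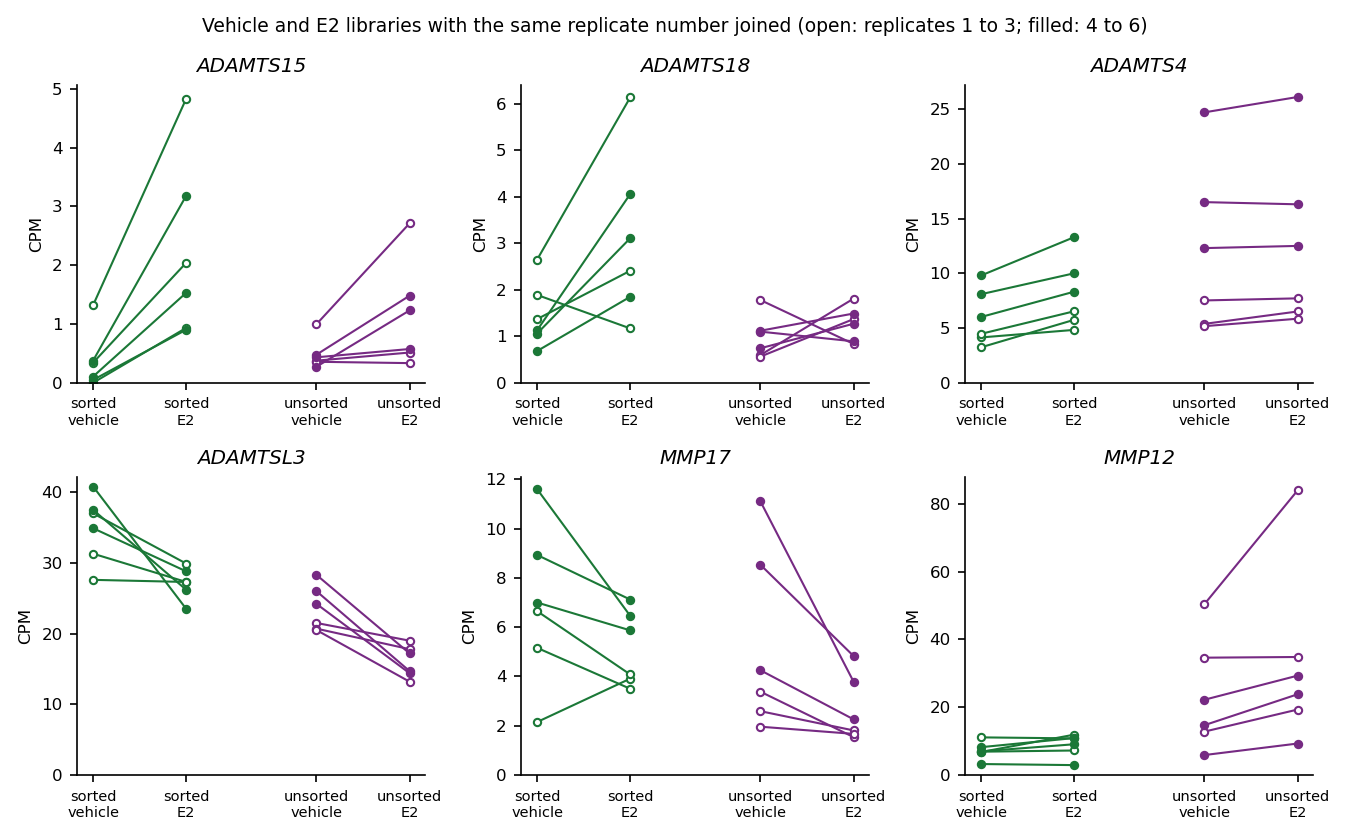
CPM on linear axes from 0 for the 6 members ADAMTS15, ADAMTS18, ADAMTS4, ADAMTSL3, MMP17 and MMP12, with the vehicle and E2 libraries of the same replicate number joined (sorted green, unsorted purple, open points replicates 1 to 3, filled points replicates 4 to 6). ADAMTS15 and ADAMTS4 are higher with E2 in 6 of 6 sorted pairs, ADAMTSL3 is lower in 6 of 6 pairs of each preparation, and MMP12 is higher in 6 of 6 unsorted pairs.

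In unsorted cells 0 of 42 members tested passed without pairing, where 0.245% of 15083 genes did (0.212% raised and 0.0331% lowered). An unadjusted p under 0.05 was reached by 2 members and by 2.82% of all genes, and DESeq2 called ADAMTSL3 down, with 0.823% of all genes called. With the block MMP12 and MMP1 rose and MMP17 and ADAMTSL3 fell, 9.52% of the members against 5.24% of all genes (2.86% raised and 2.37% lowered). MMP17 was lower with E2 in 6 of 6 pairs, from 1.96 to 11.1 CPM with vehicle (median 3.82) to 1.54 to 4.83 CPM with E2 (median 2.04), a blocked log2 fold change of -1.04 ± 0.14 (SE, edgeR adjusted p = 3.5e-05, against 1 without the block). The groups overlapped, since its vehicle level alone ran over a wide range between replicate numbers. In sorted cells MMP17 was lower in 5 of 6 pairs with a blocked log2 fold change of -0.43 ± 0.14 (edgeR adjusted p = 0.046), a call that was lost without replicate 2, 3, 5 or 6 (adjusted p up to 0.35).

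MMP12 was higher with E2 in 6 of 6 unsorted pairs, from 5.89 to 50.4 CPM with vehicle (median 18.5) to 9.28 to 83.9 CPM with E2 (median 26.5). The ranges overlapped almost entirely, the ratio of E2 to vehicle within a number ran from 1.01 to 1.67, and the blocked log2 fold change was 0.52 ± 0.08 (SE, edgeR adjusted p = 0.00027, against 1 without the block). MMP1 also rose in 6 of 6 unsorted pairs, by 0.27 ± 0.06 on the log2 scale with the block (edgeR adjusted p = 0.010), with ratios from 1.07 to 1.59. In sorted cells the MMP1 ratios ran from 0.818 to 1.24, with 3 pairs in each direction and a blocked log2 fold change of -0.02 ± 0.06.

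**Figure D5:**
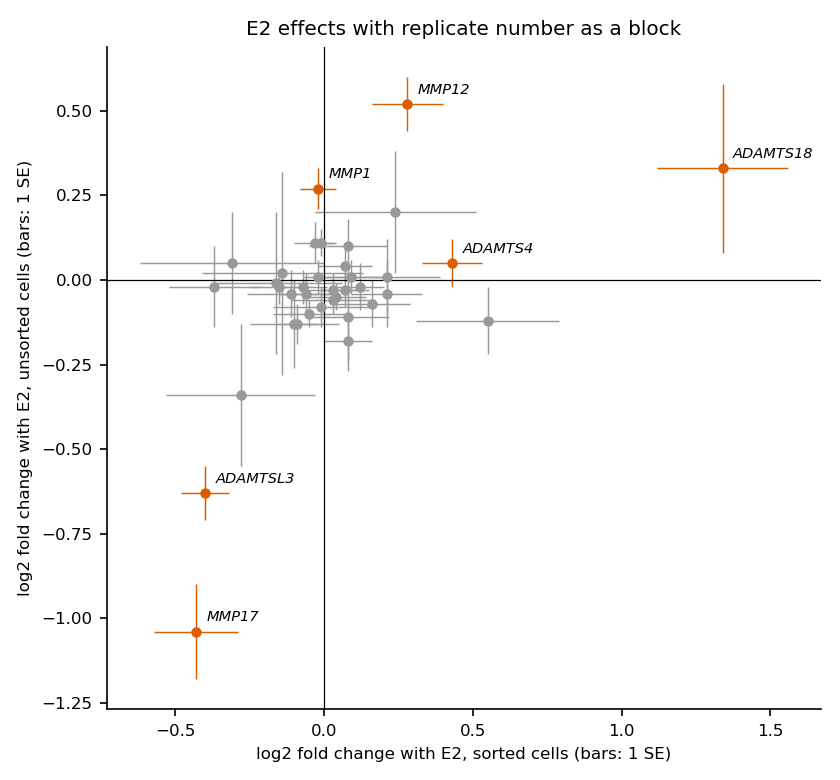
Blocked log2 fold change with E2 in sorted cells (horizontal axis) against unsorted cells (vertical axis), bars 1 SE, for the 37 members tested in both; orange points had an adjusted p under 0.05 in at least 1 of the preparations. ADAMTSL3 and MMP17 lie below 0 on both axes, and most members lie near 0; ADAMTS15, tested in sorted cells only, is not drawn.

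Calls in sorted cells and not in unsorted cells, or the reverse, were not shown to be differences between the preparations. The test of the difference between the 2 E2 effects called 0 of 43 members with edgeR, with 0 at an unadjusted p under 0.05 against 1.56% of all genes, and 0 with DESeq2, where edgeR called 0.0264% of 15134 genes and DESeq2 0.145%. With the block it again called 0 members, where 0.463% of genes passed, and 2 members had an unadjusted p under 0.05, as did 5.37% of all genes. These were ADAMTS15, with a difference of 1.63 ± 0.50 on the log2 scale (edgeR adjusted p = 0.29), and ADAMTS18, with a difference of 0.96 ± 0.43 (edgeR adjusted p = 0.83), both more positive in sorted cells.

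The lysyl oxidases and TIMPs were not called with E2 in either preparation. Their blocked log2 fold changes ran from -0.15 ± 0.10 (TIMP3) to 0.09 ± 0.13 (LOXL4) in sorted cells and from -0.06 ± 0.04 (LOXL2) to 0.11 ± 0.04 (TIMP1) in unsorted cells, the last of these higher in 6 of 6 pairs (edgeR adjusted p = 0.17). MMP2 and MMP14 were likewise not called, at -0.05 ± 0.12 and 0.04 ± 0.10 in sorted cells.

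A list of 36 other genes of matrix turnover (plasminogen activators and their inhibitors, procollagen-modifying enzymes, cathepsins, matrix proteins and protease inhibitors), 32 of them with a feature, was set beside the members. Under vehicle 21 of 31 tested were lower in sorted cells and 4 were higher, with a median log2 fold change of -1.01. Of all genes tested, 25.8% were lower and 24.4% higher. With the block 23 of the 31 were lower and 5 higher, where 63.6% of all genes were called in either direction. The lower genes included FN1, fibronectin (-2.81 ± 0.19), and the collagen hydroxylases PLOD1 (-1.40 ± 0.10), PLOD2 (-2.43 ± 0.18) and P4HA2 (-1.76 ± 0.12), each with an edgeR adjusted p of 1.6e-07 or less. Without the block the higher genes were the broad protease inhibitor A2M (2.91 ± 0.29), the matrix proteoglycans SPOCK1 (1.49 ± 0.26) and SPOCK2 (0.70 ± 0.14), and the procollagen proteinase enhancer PCOLCE2 (1.10 ± 0.38, edgeR adjusted p = 0.027). A2M averaged 5854.0 ± 2164.0 CPM in sorted and 770.0 ± 269.0 CPM in unsorted vehicle libraries (SD, n = 6 each).

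With E2, 0 of 30 of these genes passed in sorted cells and 0 of 32 in unsorted cells without the block (edgeR). With the block 2 of 30 rose in sorted cells, where 7.03% of all genes were raised. In unsorted cells 2 of 32 rose and 1 fell with the block, where 2.86% of all genes were raised and 2.37% lowered. With the block TLL1, a protease that matures procollagens and lysyl oxidases, rose in both (0.95 ± 0.17 and 1.25 ± 0.25 on the log2 scale, edgeR adjusted p = 0.00082 and 0.010). Its relative BMP1 rose in sorted cells (0.24 ± 0.05, edgeR adjusted p = 0.00089). In unsorted cells SPOCK1 rose (0.36 ± 0.07) and A2M fell (-0.17 ± 0.05), with edgeR adjusted p-values of 0.0019 and 0.032.

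Many markers of other cells were lower in sorted cells under vehicle, but not all. Of all genes tested in that comparison, 25.8% were lower. Of the fibroblast and pericyte genes tested under vehicle 6 of 10 were lower in sorted cells and 1, DCN, was higher (0.93 ± 0.34, edgeR adjusted p = 0.037), with COL1A1 at -2.93 ± 0.42 and PDGFRB at -2.67 ± 0.47. Of the folliculostellate and stem cell genes 6 of 8 were lower and 2 higher, with SOX2 at -2.95 ± 0.29 and S100B at 0.69 ± 0.20. Of the endothelial genes 5 of 8 were lower and 0 higher, and the rest were not called. With the block 7 of 10 fibroblast and pericyte genes were lower and 1 higher. Of the endothelial genes 5 of 8 were then lower and 1 higher. The folliculostellate and stem cell counts stayed the same, and 63.6% of all genes were called in either direction with the block. Immediate-early genes, which respond to cell handling and to hormones, summed to 647 to 1138 CPM in sorted libraries with vehicle and 431 to 684 CPM with E2, and to 144 to 221 CPM and 146 to 237 CPM in the corresponding unsorted libraries. In sorted cells 1 of the 6, JUN, fell with E2 without the block and 5 with it. The part of these cells and genes in the members' differences was not tested.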

How the data were processed

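RNA from sorted and unsorted sheep pituitary cells was sequenced on an Illumina HiSeq after TruSeq library preparation, per the labels' protocols. The deposited counts are whole reads per gene in 24 libraries, made with featureCounts 1.5.1 per the submitters' processing notes. The sources used here name no aligner, genome build or strand setting. The deposited log2 fold changes and p-values in the authors' comparison tables are from edgeR, per the file headers, and are used only where named.

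Each comparison was fitted on all genes with edgeR 4.0.16 (TMM scaling, filterByExpr, robust quasi-likelihood fit and test, Benjamini-Hochberg adjustment over all genes tested), with a call at an adjusted p under 0.05. The edgeR fit without the block was tested on simulated data for the vehicle sort comparison and for E2 against vehicle in sorted cells. The blocked fits, the other comparisons and DESeq2 were not tested in that way. CPM use TMM-scaled library sizes over all 24 libraries. Levels are not scaled to gene length, so they are not compared between genes.

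The numbers pair the samples by the data: in all 36 same-numbered pairs of libraries from different groups, deviations from the group means correlated (Pearson r across genes from 0.29 to 0.859), although no label says what a number shares. Differently numbered pairs had r from -0.607 to 0.512. In 72 of 72 comparisons of a library with those of another group, the same number had the highest r. A fit with replicate number as a block was therefore set beside each call on a member that it changed, and beside the counts of the gene lists that it changed. Alternatives were RLE scaling, no filter, DESeq2 1.42.0, either set of replicate numbers alone, leaving out each library, and, chosen after seeing the data, the block without each number.

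The members and lists were chosen with earlier results of these data known. Values per library are given for called members averaging at least 5 CPM, up to 10 in each direction, for the 4 uncalled members with the highest means, and for members that a result turns on. RefSeq symbols matched 49 of the 50 members.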

Additional observations from a re-analysis of the deposited data

Results flagged for a closer look

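In 10 of the 153 sets of 6 libraries examined (members by group), 1 library stood apart from the other 5 by a gap, relative to the whole range, over Dixon's critical value. Chance gives about 1 in 20. MMP9 was highest in replicate 1 of sorted vehicle (14.4 CPM) and of sorted E2 (17.5 CPM). MMP3 was highest in replicate 5 of both sorted groups (43.9 CPM with vehicle and 39.1 CPM with E2). MMP14 was highest in sorted vehicle replicate 1 (59.1 CPM) and in replicate 6 of unsorted vehicle (268.0 CPM) and unsorted E2 (259.0 CPM). MMP12 was highest in unsorted E2 replicate 2 (83.9 CPM), MMP7 in unsorted E2 replicate 4 (3.15 CPM) and ADAMTS17 in unsorted vehicle replicate 1 (2.19 CPM). For MMP9, MMP3 and, in unsorted cells, MMP14 the library that stood apart had the same replicate number with vehicle and with E2.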

How the results depend on the processing

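No member changed direction from a called value under any alternative run. Without pairing, E2 raised 0 members in sorted cells; the number was 1 with DESeq2, 3 with the replicate block, 2 with the block in replicates 4 to 6 only, 0 to 1 without 1 library (1 without sorted vehicle replicate 1) and 2 to 3 with the block without 1 number. E2 lowered 0 members in sorted cells, 1 with DESeq2, 2 with the block, 1 with the block in replicates 4 to 6 only and 1 to 2 with the block without 1 number. In unsorted cells the number raised was 0 without pairing, 2 with the block, 3 with the block in replicates 4 to 6 only and 2 to 3 with the block without 1 number, and the number lowered was 0, 1 with DESeq2, 2 with the block, 2 in replicates 4 to 6 only and 2 without any 1 number. In replicates 1 to 3 alone, with the block, the 4 numbers were 0. The 8 members higher in sorted cells under E2 became 5 to 8 without 1 library, with 5 without sorted E2 replicate 4 or 5. Under vehicle, 5 to 7 members were higher and 19 to 24 lower without 1 library. Beside the calls named above, the replicate block changed no other call on a member. Depth limits the members below about 1 CPM, which had a few reads per library in replicates 1 to 3.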
